A study of Homo sapiens with 24 samples.

Results

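The 10 genes described here encode inhibitors of the mitogen-activated protein kinases, chiefly of ERK: the dual-specificity phosphatases DUSP1, DUSP4, DUSP5, DUSP6 and DUSP10, the Sprouty proteins SPRY1, SPRY2 and SPRY4, and the Sprouty-related proteins SPRED1 and SPRED2. They were taken as every non-control probe that the array files assign to 1 of these symbols, which gave 11 probes for 10 genes out of 34127 probes for 27263 gene names. All 10 genes and all 11 probes passed the filter on dim signal, as did 15150 genes and 18962 probes of the whole array. The cells were HCT-116, a colorectal carcinoma line with a stabilizing mutation in the gene of beta-catenin, so that Wnt signaling is active without ligand. All samples came from 1 clone that had been stably transfected with a Tet repressor and with DN-Tcf4 under a Tet-inducible promoter. DN-Tcf4 is a truncated Tcf4 that occupies Tcf sites in DNA without activating them. The study asked which genes respond to butyrate through Wnt signaling, and so it crossed both agents. Ctl cells were mock-treated, NaB cells received 5 mM sodium butyrate, Doxy cells received 4 ug/ml doxycycline, and DoxyNaB cells received both agents. Butyrate was present for 17.5 hr. Each of the 4 treatments was run in 6 experiments, on 24 one-colour arrays, and the experiment number paired the arrays.

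Growth factor receptors drive a kinase cascade that ends in ERK, and ERK in turn induces the genes that switch it off. The nuclear phosphatases DUSP1, DUSP4 and DUSP5 and the cytoplasmic phosphatase DUSP6 remove the activating phosphates from MAP kinases; DUSP5 and DUSP6 are selective for ERK, DUSP1 and DUSP4 can also act on JNK or p38, and DUSP10 prefers JNK and p38. Sprouty and SPRED proteins act further upstream, between the receptor and the kinases. In the intestinal epithelium this feedback limits proliferative signaling, and several of these genes are commonly read as gauges of ERK activity. Butyrate, a product of bacterial fermentation in the colon, inhibits histone deacetylases.

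The arrays carried 1 probe for each gene and a pair of probes for SPRY4. DUSP10, with DUSP1 one of the pair of genes that changed most with butyrate, was read by a probe that lies on the minus strand of chromosome 1 at chr1:219942396-219942455 (NCBI36). The dimmer SPRY4 probe, which did not follow the other probe of its gene, lies at chr5:141674671-141674730 (NCBI36). Both are shown here because the results below turn on what these oligonucleotides measured, and the files do not say which part of a transcript they lie in.
DUSP10 probe: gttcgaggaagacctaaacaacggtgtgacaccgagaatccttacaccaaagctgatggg
SPRY4 dimmer probe: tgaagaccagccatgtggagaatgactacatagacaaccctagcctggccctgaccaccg

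RefSeq start-site windows on GRCh38.p14 were found for 8 of the 10 genes, 13 windows in all, each reaching from 250 bases before a start to 50 after it. The upstream 250 bases are printed for the 4 genes that passed the 2-fold threshold with butyrate alone. Capitals mark matches, on either strand, to TGACGT (the core of the cyclic AMP response element, or CRE), GGGCGG (the GC box, bound by Sp1 factors), CCGGAAG (an ETS site), TGANTCA (an AP-1 site) or CTTTGAT (a TCF site). The first of 2 windows is shown for DUSP10. All 4 genes lie on the minus strand.
DUSP1, chr5:172771196-172771445: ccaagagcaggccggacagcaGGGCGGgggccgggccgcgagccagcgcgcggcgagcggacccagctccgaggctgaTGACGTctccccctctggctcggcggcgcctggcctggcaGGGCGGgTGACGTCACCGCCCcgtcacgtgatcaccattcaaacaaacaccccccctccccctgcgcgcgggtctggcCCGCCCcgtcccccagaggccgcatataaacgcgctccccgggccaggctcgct
DUSP10, chr1:221742090-221742339: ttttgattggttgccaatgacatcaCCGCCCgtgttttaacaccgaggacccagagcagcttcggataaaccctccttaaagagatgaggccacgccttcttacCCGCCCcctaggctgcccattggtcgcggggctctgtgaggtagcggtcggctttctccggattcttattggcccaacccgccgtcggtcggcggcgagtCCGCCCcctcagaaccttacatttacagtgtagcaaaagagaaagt
DUSP6, chr12:89352502-89352751: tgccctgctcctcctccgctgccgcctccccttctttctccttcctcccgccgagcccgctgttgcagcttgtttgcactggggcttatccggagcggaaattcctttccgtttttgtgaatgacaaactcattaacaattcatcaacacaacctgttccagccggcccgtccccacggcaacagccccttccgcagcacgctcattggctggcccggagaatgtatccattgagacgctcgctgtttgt
SPRY4, chr5:142324248-142324497: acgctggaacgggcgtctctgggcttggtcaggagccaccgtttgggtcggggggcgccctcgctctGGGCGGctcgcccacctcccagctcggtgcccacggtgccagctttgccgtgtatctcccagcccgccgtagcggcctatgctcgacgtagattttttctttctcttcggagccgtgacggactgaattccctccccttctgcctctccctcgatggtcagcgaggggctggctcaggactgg

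The DUSP1 window held 3 matches to the CRE core, which began 172, 125 and 123 bases before the start, the last 2 overlapping each other, and 4 GC boxes. The CRE core was in 7.98% of all 35116 RefSeq windows and in 2 of the 13 windows here, those of DUSP1 and the first of SPRED2. The DUSP10 window held 3 GC boxes and the SPRY4 window 1, and none of the 5 motifs was found in the DUSP6 window. GC boxes were in 9 of the 13 windows, against 44.95% of all windows. The TCF motif was in none of the 13, against 2.62% of all windows. The ETS motif was in 1 window, the second of SPRY1 (10.26% of all), and the AP-1 motif in 1, the second of SPRED2 (7.71% of all). These are matches of letters in a short window, not mapped sites.

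The arrays read as intestinal epithelium: 7 of 8 colon epithelial markers were well above background on all 24 arrays and EPCAM on 22. Of the leukocyte, fibroblast and endothelial markers on the array none was well above background on all 24, and COL3A1 was so on none. The summed signal of the 4 leukocyte markers was 0.518 to 1.07 times the array's 75th percentile in NaB and DoxyNaB and 0.135 to 0.389 times in Ctl and Doxy. That of the 6 fibroblast markers was 0.227 to 1.36 with butyrate and 0.264 to 0.525 without it, and that of the 4 endothelial markers 0.190 to 1.14 and 0.0975 to 0.574. The sum of the epithelial markers was 214 or more on every array. The part of these markers in the results below was not tested. The share of spots well above background ran from 52.7% to 88.1%. Experiments 2 to 4, scanned together, had brighter arrays than the others, and within them the average net signal of the negative controls reached 249 on the butyrate arrays and 79.6 on the others, with the DoxyNaB array of experiment 3 at 69.1. In experiments 5 and 6 it lay between 48.4 and 53.8 on every array. TCF7L2, which encodes Tcf4, was higher by a log2 change of 2.96 in DoxyNaB than in NaB (adjusted p = 3.64e-05), and AXIN2, a Wnt target, lower by -2.53 (adjusted p = 2.63e-11). Between Doxy and Ctl the TCF7L2 change was -0.17 (adjusted p = 0.921) and that of AXIN2 -0.58 (adjusted p = 0.00289), each by limma.

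Butyrate raised DUSP1, DUSP10 and DUSP6 and lowered SPRY4. A gene was called changed at a fold over 2 with a Benjamini-Hochberg adjusted p under 0.01 in limma, paired by experiment and adjusted over all probes tested. By that rule 3 of the 10 genes were higher and 1 was lower in NaB than in Ctl. Butyrate moved much of the transcriptome, and 21% of all tested genes were called higher and 11.5% lower by the same rule. The RNA came from whole cultures, so a change in every cell and a change in the share of responding cells cannot be told apart. A level here is the log2 of a probe's signal over the array's own 75th percentile, and it is never compared between genes.

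DUSP1, the immediate-early nuclear phosphatase, is read by a probe at chr5:172127902-172127961 (NCBI36) that is printed in 10 spots per array. Its level was -1.19 to -0.22 in Ctl (median -0.37) and 1.79 to 2.42 in NaB (median 2.05). It was -1.11 to -0.30 in Doxy (median -0.46) and 2.03 to 2.47 in DoxyNaB (median 2.32). Every butyrate array lay above every array without butyrate. DUSP1 rose 5.83-fold in NaB over Ctl (log2 change 2.54, SE 0.14, adjusted p = 1.8e-11). It rose 7.09-fold in DoxyNaB over Doxy (log2 change 2.83, SE 0.14, adjusted p = 4.1e-12). All 6 experiments showed the rise in both comparisons. Of the 10 spots 8 to 10 were used per array, and they differed with an SD of 0.05 to 0.68 on the log2 scale (median 0.12), which covers technical error within an array only. The highest SDs, 0.61 and 0.68, were on the Ctl and NaB arrays of experiment 1. Experiment 1 gave the lowest untreated level and the largest responses of the 6, 3.17 without and 3.58 with doxycycline.

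DUSP10, the JNK and p38 phosphatase, changed more than DUSP1 in NaB over Ctl and less than DUSP1 in DoxyNaB over Doxy. Its level was -4.06 to -3.24 in Ctl (median -3.56) and -0.94 to -0.59 in NaB (median -0.72). It was -4.22 to -3.30 in Doxy (median -3.65) and -1.60 to -1.26 in DoxyNaB (median -1.35). Neither butyrate group overlapped a group without butyrate, and the DoxyNaB arrays all lay below the NaB arrays. DUSP10 rose 7.28-fold in NaB over Ctl (log2 change 2.86, SE 0.11, adjusted p = 8.8e-14) and 5.01-fold in DoxyNaB over Doxy (log2 change 2.32, SE 0.11, adjusted p = 1.2e-12). Among the 15150 tested genes this placed it 449th from the top without doxycycline and 613th with it. The probe was well above background on all 24 arrays, but it was dim without butyrate, and its fold depended on how background was handled: with the normexp correction the log2 change in NaB over Ctl was 1.62, below that of DUSP1 (2.27). In experiments 5 and 6 alone, the scans with the narrow range of negative controls, the change was 2.93 to 3.35.

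DUSP6, the cytoplasmic ERK phosphatase, rose 2.25-fold in NaB over Ctl (log2 change 1.17, SE 0.07, adjusted p = 2.26e-11). Its probe lies at chr12:88266275-88266334 (NCBI36). The level was 3.56 to 3.76 in Ctl (median 3.64), the narrowest spread of any gene here in Ctl, and 4.59 to 5.12 in NaB (median 4.74). With doxycycline the level went from 3.78 to 4.13 (median 4.09) in Doxy to 4.30 to 4.71 (median 4.62) in DoxyNaB. The groups did not overlap in either comparison, yet the change under doxycycline was 1.48-fold (log2 0.57, SE 0.07, adjusted p = 4.43e-07), short of the fold threshold. Scaled to the array's median in place of its 75th percentile, the NaB over Ctl change was 0.42 (adjusted p = 0.09) and the call was lost, and the DoxyNaB over Doxy change was 0.01 (adjusted p = 0.983).

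DUSP5 and DUSP4, both nuclear, went opposite ways. DUSP5, whose probe lies at chr10:112260890-112260949 (NCBI36), had levels of 1.44 to 1.97 in Ctl (median 1.80) and 2.13 to 2.58 in NaB (median 2.43), without overlap. Its log2 change was 0.63 (SE 0.09, adjusted p = 7.25e-06) in NaB over Ctl and 0.92 (SE 0.09, adjusted p = 6.3e-08) in DoxyNaB over Doxy, 1.55-fold and 1.89-fold, past the p threshold and under the fold threshold. Scaled to the median, the first of these was -0.12, while under the quantile normalization the second was 1.05 and was called. The array holds a separate probe for the pseudogene DUSP5P, well above background on 17 arrays, and cross-hybridization between them was not tested. DUSP4, on chromosome 8, had levels of 1.80 to 2.24 in Ctl (median 2.14) and 1.31 to 1.69 in NaB (median 1.51). The log2 change was -0.60 (SE 0.06, adjusted p = 2.75e-08), lower in 6 of 6 experiments and under the fold threshold. With doxycycline DUSP4 fell by 1.19 on the log2 scale (SE 0.06, adjusted p = 1.99e-12), from 2.07 to 2.44 in Doxy (median 2.37) to 0.90 to 1.30 in DoxyNaB (median 1.13), and this was a call.

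**Figure D1:**
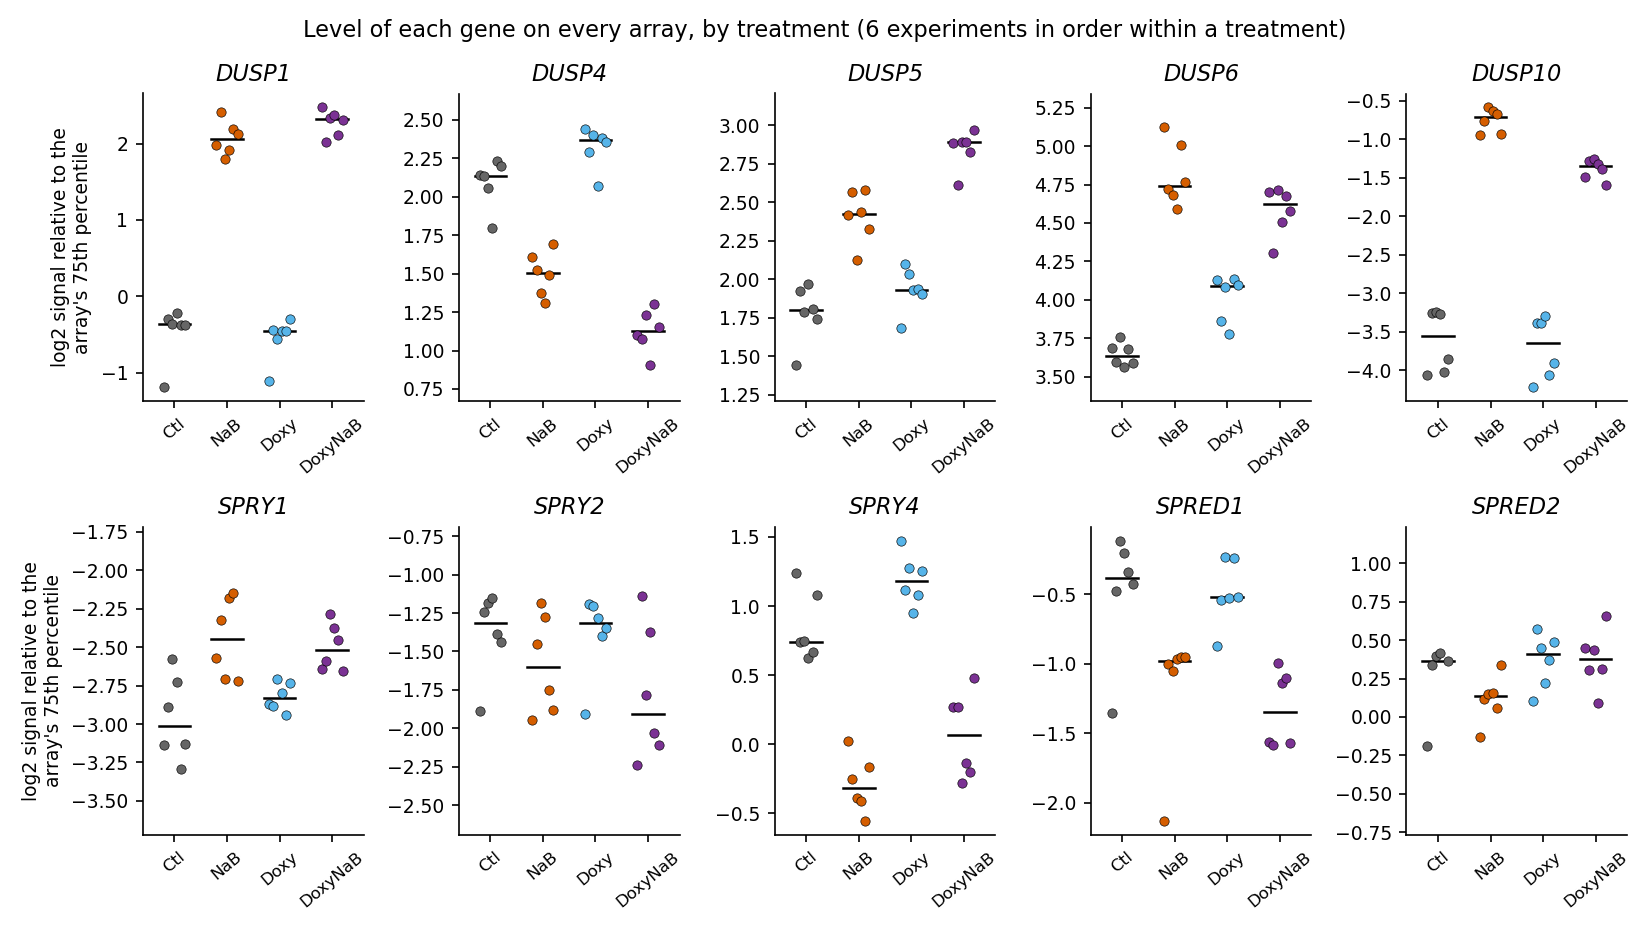
Level of each of the 10 genes on every array (vertical axis, log2 of the signal over the array's 75th percentile, each panel with its own range) in Ctl, NaB, Doxy and DoxyNaB cells. Points are arrays, placed from experiment 1 at the left to experiment 6 at the right within a treatment, and bars are medians; the butyrate arrays of DUSP1, DUSP5, DUSP6 and DUSP10 lie wholly above the others, and those of DUSP4 and SPRY4 wholly below.

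The Sprouty genes did not move as a group. SPRY4, which restrains signaling from growth factor receptors, fell by 1.14 on the log2 scale in NaB over Ctl (SE 0.08, adjusted p = 4.59e-10) and by 1.13 in DoxyNaB over Doxy (SE 0.08, adjusted p = 5.52e-10). These values come from the brighter of its probes, at chr5:141670755-141670814 (NCBI36). On it the level was 0.62 to 1.24 in Ctl (median 0.74) and -0.55 to 0.02 in NaB (median -0.32), and 0.95 to 1.47 in Doxy (median 1.18) and -0.28 to 0.48 in DoxyNaB (median 0.06). Neither pair of groups overlapped. The dimmer probe printed above was well above background on 17 of 24 arrays and read log2 changes of 0.71 (SE 0.41, adjusted p = 0.128) and 0.01 (SE 0.41, adjusted p = 0.976), with SDs over the experiments of 0.98 and 1.17. Averaged over both probes the change of SPRY4 was -0.22 in NaB over Ctl (adjusted p = 0.385) and -0.56 in DoxyNaB over Doxy (adjusted p = 0.0315), so that both calls rest on the brighter probe. The call without doxycycline was also lost with the normexp correction, which gave -0.93 and so missed the fold threshold.

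SPRY1 had a log2 change of 0.52 in NaB over Ctl (SE 0.11, adjusted p = 0.000425), higher in 5 of 6 experiments with overlapping groups: -3.29 to -2.58 in Ctl (median -3.01) and -2.72 to -2.15 in NaB (median -2.45). That sign turned under the quantile normalization (-0.59) and the median scaling (-0.23). With doxycycline the change was 0.32 (SE 0.11, adjusted p = 0.0151), and it turned in the same way, to -0.51 and -0.24. SPRY2 had a log2 change of -0.20 (SE 0.10, 95% interval -0.41 to 0.01, adjusted p = 0.0836) without doxycycline and -0.39 (SE 0.10, adjusted p = 0.00202) with it. Its levels were -1.89 to -1.15 in Ctl (median -1.32) and -1.94 to -1.18 in NaB (median -1.60), overlapping almost throughout.

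The SPRED proteins are membrane-bound relatives of the Sproutys that restrain the same pathway. SPRED1 had log2 changes of -0.69 (SE 0.12, adjusted p = 5e-05) in NaB over Ctl and -0.84 (SE 0.12, adjusted p = 5.53e-06) in DoxyNaB over Doxy, lower in 6 of 6 experiments in each and under the fold threshold. It was called lower in both comparisons under the median scaling (-1.44 and -1.39), and in DoxyNaB over Doxy under the quantile normalization (-1.29). Its levels were -1.35 to -0.12 in Ctl (median -0.38) and -2.13 to -0.95 in NaB (median -0.98). Those groups overlapped because of experiment 1, whose Ctl and NaB arrays were both far below the rest. SPRED2 had log2 changes of -0.14 (95% interval -0.34 to 0.05, adjusted p = 0.164) and 0.01 (95% interval -0.18 to 0.20, adjusted p = 0.939). Under the median scaling the same limma changes of SPRED2 were -0.94 (adjusted p = 0.000989) and -0.55 (adjusted p = 0.0367). The SPRED2 spot on the Ctl array of experiment 5 was an outlier and was dropped, which left 5 Ctl values from -0.19 to 0.42, against -0.13 to 0.34 in NaB.

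**Figure D2:**
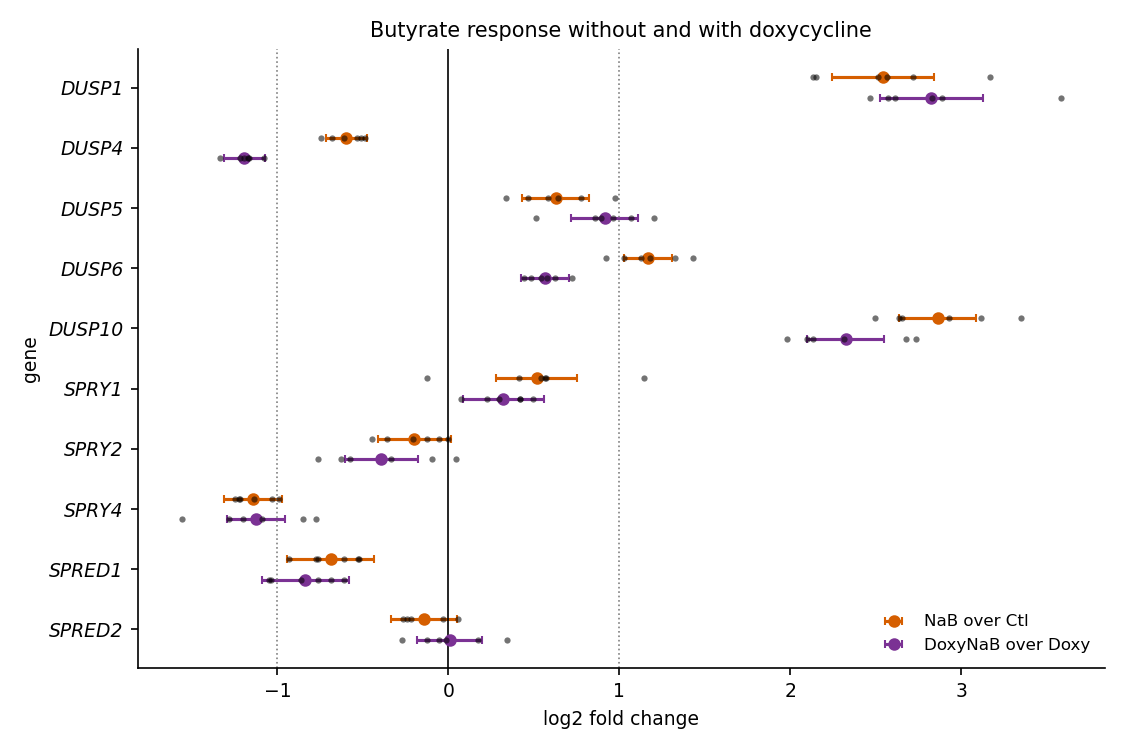
Butyrate response of the 10 genes (horizontal axis, log2 fold change) as NaB over Ctl (orange) and DoxyNaB over Doxy (purple), with the 95% interval of the limma fit and small black points for the single experiments. Dotted lines stand at a 2-fold change; DUSP1 and DUSP10 lie far to the right of it in both comparisons, and DUSP4 and SPRY4 to the left of it in DoxyNaB over Doxy.

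Under doxycycline the butyrate response called 2 of the 10 genes higher, DUSP1 and DUSP10, and 2 lower, DUSP4 and SPRY4. Over all tested genes 18.7% were called higher and 12.5% lower. The median log2 change of the 10 genes was 0.19 without doxycycline and 0.17 with it, beside 0.17 and 0.11 over all tested genes.

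The size of each butyrate response depended on the reference level within the array. Over all tested probes the median log2 change in NaB over Ctl was 0.17 with the 75th percentile, 0.07 with the normexp correction, -0.09 with the quantile normalization and -0.58 with the median scaling, and 3926 probes higher and 2087 lower became 1644 higher and 6124 lower under the last and 2461 and 3164 under the quantile normalization. In DoxyNaB over Doxy 3475 higher and 2326 lower became 1749 and 5243 under the median scaling and 2399 and 3192 under the quantile normalization. Relative to the median of all probes under the same scaling, DUSP1 was higher by 2.20 to 2.65 in NaB over Ctl, DUSP10 by 1.55 to 2.69 and DUSP6 by 1.00 to 1.41. On the same footing SPRY4 fell by 1.00 to 1.31, and SPRED1 lay at -0.87 to -0.73 and DUSP4 at -0.77 to -0.33. The 75th percentile and the median scaling differ only by a constant per array, so these relative values could hardly differ between them. DUSP1 and DUSP10 kept their calls under all 4 scalings in both comparisons, as did DUSP4 and SPRY4 in DoxyNaB over Doxy.

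**Figure D3:**
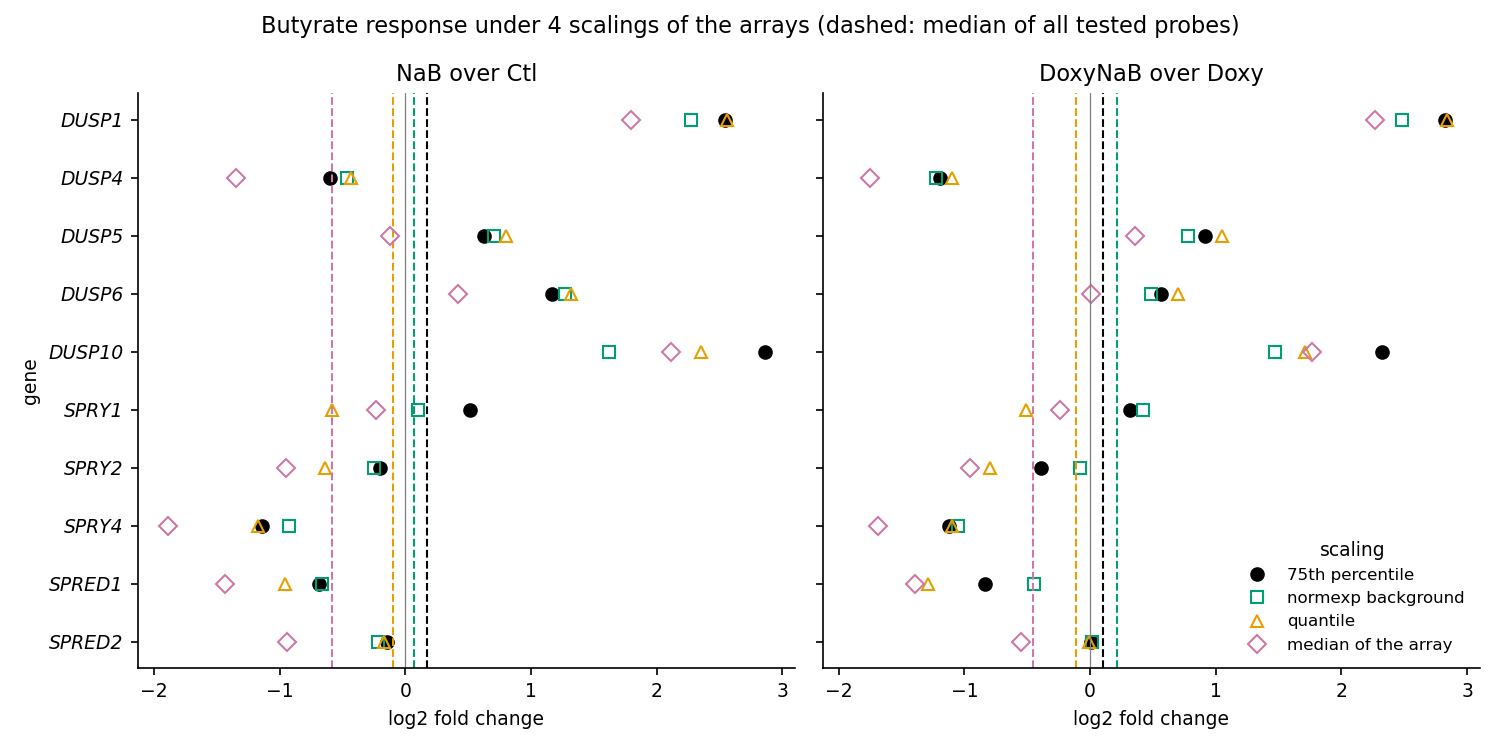
Butyrate response of the 10 genes (horizontal axis, log2 fold change) without doxycycline (left) and with it (right) under the 75th percentile, the normexp background correction, the quantile normalization and the median of the array. Dashed lines of the same colours mark the median of all tested probes, -0.58 in NaB over Ctl for the median scaling and 0.17 for the 75th percentile.

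Doxycycline alone left no gene of the 10 past the fold threshold, higher (0.066% of all tested genes were called) or lower (0.0264%). The count was also 0 by the methods' t-test, while 3 genes had an unadjusted limma p under 0.05. The share of all tested genes at that unadjusted p is not given here, so the count cannot be set against the shares above. DUSP6 had a log2 change of 0.37 (SE 0.07, adjusted p = 0.00714), higher in 6 of 6 experiments with no overlap between 3.56 to 3.76 in Ctl and 3.78 to 4.13 in Doxy. SPRY4 (0.34, SE 0.08, adjusted p = 0.0494) and DUSP4 (0.23, SE 0.06, adjusted p = 0.0621) were also higher in 6 of 6 experiments, with overlapping groups. The other 7 genes lay between -0.10 and 0.15.

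In butyrate-treated cells, where the TCF7L2 probe rose with doxycycline, none of the 10 passed the fold threshold between DoxyNaB and NaB either (0.139% of all tested genes were called higher and 0.257% lower). The methods' t-test also called 0, and 6 genes had an unadjusted limma p under 0.05. The shares above are for the stricter rule. The share of all tested genes at the unadjusted p is not given here, so no excess can be read from that count. DUSP10 came nearest, with a log2 change of -0.64 (SE 0.11, adjusted p = 0.00113), 1.55-fold lower, in the same direction in 6 of 6 experiments, from -0.72 to -0.52. DUSP4 was at -0.37 (SE 0.06, adjusted p = 0.000452) and lower in 6 of 6. DUSP5 stood on the other side at 0.44 (SE 0.09, adjusted p = 0.00835), higher in 6 of 6, and SPRY4 at 0.36 (SE 0.08, adjusted p = 0.0138), higher in 6 of 6. DUSP10, DUSP4 and DUSP5 had groups that did not overlap, while those of SPRY4 did. DUSP1 was at 0.20 (95% interval -0.10 to 0.50, adjusted p = 0.579).

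**Figure D4:**
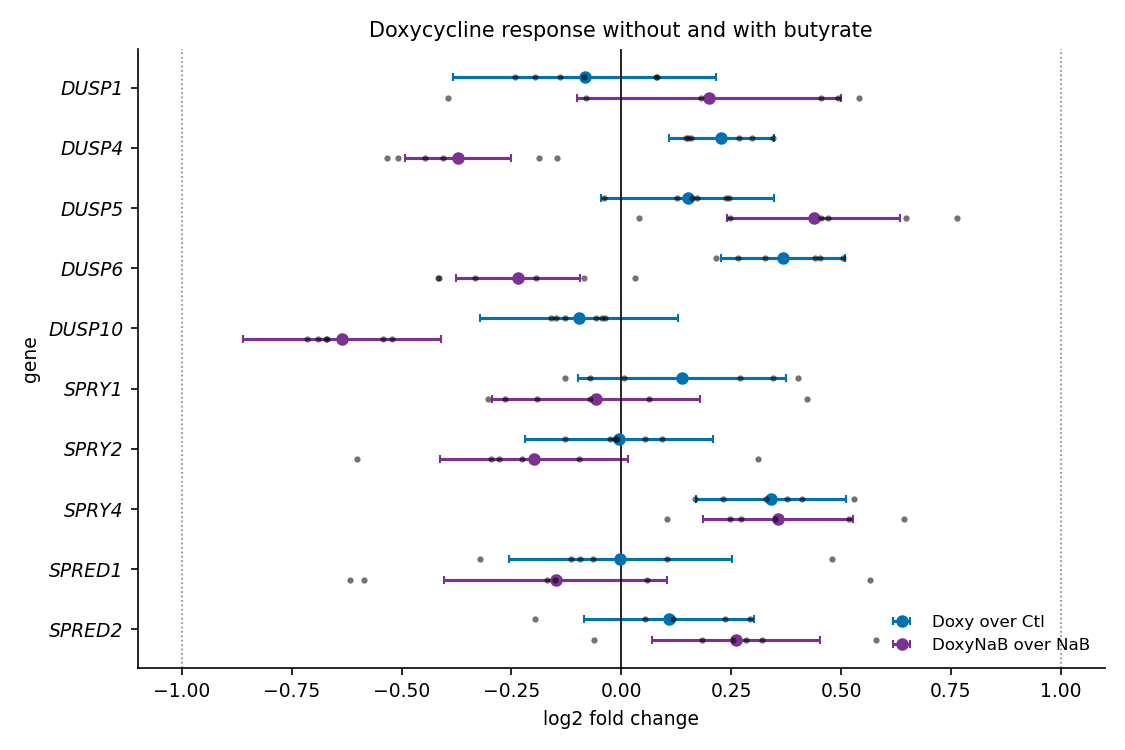
Doxycycline response of the 10 genes (horizontal axis, log2 fold change) as Doxy over Ctl (blue) and DoxyNaB over NaB (purple), with 95% intervals of the limma fit and small black points for the single experiments. No fitted change reaches the dotted line of a 2-fold change; DUSP10 comes nearest at -0.64 in DoxyNaB over NaB.

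The butyrate response of DUSP4 and DUSP6 differed with doxycycline. The difference was tested as the interaction, the change of NaB over Ctl minus that of DoxyNaB over Doxy, and called at an adjusted p under 0.01 with no fold threshold. DUSP4 gave 0.60 (SE 0.08, adjusted p = 0.000249): in the 6 experiments its response went from between -0.75 and -0.49 without doxycycline to between -1.34 and -1.08 with it, with no overlap. DUSP6 also gave 0.60 (SE 0.09, adjusted p = 0.00103): its response went from between 0.92 and 1.43 to between 0.44 and 0.72. The larger part was its rise in Doxy over Ctl (0.37, adjusted p = 0.00714 by limma). In DoxyNaB over NaB it changed by -0.24 (adjusted p = 0.0524), lower in 5 of 6 experiments with overlapping groups. The interaction was above 0 in 6 of 6 experiments for both genes. Over all tested genes 1.11% were called above 0 and 0.244% below 0 by this rule. Both calls were lost with the median scaling (0.41 for each gene, adjusted p = 0.984) and without the pairing (adjusted p = 0.0206 for DUSP4 and 0.0314 for DUSP6). DUSP6's call was also lost with the normexp correction (adjusted p = 0.0678) and when experiment 5 or 6 was left out (adjusted p = 0.0188 and 0.0129). DUSP10 had an interaction of 0.54 (SE 0.15, adjusted p = 0.0809), above 0 in 6 of 6 experiments, and was not called. The methods' test without adjustment called 3 genes and included DUSP10, but the share of all tested genes called by that test is not given here. For DUSP1 it was -0.28 (95% interval -0.71 to 0.14, adjusted p = 0.647) and for SPRY4 -0.01 (95% interval -0.26 to 0.23, adjusted p = 0.975).

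The genes that ERK signaling induces, and the related kinases and phosphatases, are described by lists. Of 19 tested genes that ERK signaling is known to induce, 4 were called higher and 5 lower in NaB over Ctl, with a median of 0.12, beside 21% and 11.5% of all tested genes and a median of 0.17. The largest rises were those of FOS (log2 change 4.63, adjusted p = 9.67e-15) and EGR1 (2.76, adjusted p = 2.38e-13), immediate-early transcription factors, and of the receptor EPHA4 (1.96, adjusted p = 7.6e-10). The deepest falls were those of the membrane protein EMP1 (-4.18, adjusted p = 4.93e-15), of EREG (-3.50, adjusted p = 6.26e-14), a ligand of the EGF receptor, and of FOSL1 (-3.45, adjusted p = 5.44e-16), a partner of JUN. In DoxyNaB over Doxy 3 were called higher and 7 lower, with a median of -0.17, beside 18.7% and 12.5% of all tested genes and a median of 0.11.

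MYC (-1.52, adjusted p = 7.91e-11) was the 1 gene of these lists called in DoxyNaB over NaB. The interaction was called for MYC (1.60, adjusted p = 2.13e-08), the cyclin CCND1 (1.04, adjusted p = 0.000201), the ligand AREG (0.75, adjusted p = 0.00218) and the immediate-early gene IER3 (0.71, adjusted p = 0.00271), and for no other gene of the 3 lists described here. Of the ERK-induced genes, 4 had a called interaction under the quantile normalization, 3 with the normexp correction and 0 under the median scaling. The study also lists MYC and CCND1 among its Wnt/Tcf-targeted genes. No gene of the lists was called in Doxy over Ctl.

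The list of p38 and JNK kinases and their activators includes substrates of DUSP10 and DUSP1. Of its 10 tested genes, 2 were called higher and 3 lower in NaB over Ctl, beside 21% and 11.5% of all tested genes. The median was 0.21, beside 0.17 over all tested genes. MAP2K3 (1.33, adjusted p = 8.25e-12), an activator of p38, was 1 of the higher genes. The other, MAP2K6, was well above background on 2 of 6 Ctl and 6 of 6 NaB arrays, so that it passed the filter through the group where it was high, and no size is given for its change. The falls were those of the p38 kinases MAPK13 (-2.66, adjusted p = 9.44e-10), MAPK12 (-1.71, adjusted p = 5.48e-10) and MAPK11 (-1.37, adjusted p = 4.68e-08). Of 5 tested relatives among DUSP2, DUSP7, DUSP8, DUSP9, DUSP16, SPRY3 and SPRED3, none was called in NaB over Ctl, and the median was 0.04, beside 0.17 over all tested genes. In DoxyNaB over Doxy 2 were called higher, DUSP2 (1.05, adjusted p = 1.64e-05) and DUSP8 (1.02, adjusted p = 8.22e-08), which are MAP kinase phosphatases as well, and 1 lower, beside 18.7% and 12.5% of all tested genes. The lower one, DUSP16, was well above background on 6 of 6 Doxy and 2 of 6 DoxyNaB arrays, so that it passed the filter in this comparison through the group where it was high, and no size is given for its change. Under the median scaling, which lowered all 3 lists, 2 of the relatives, 8 of the ERK output genes and 4 of the p38 and JNK list were called lower in NaB over Ctl. Under that scaling 6124 of all 18962 tested probes were called lower in the same comparison. The share by gene is not given here.

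**Figure D5:**
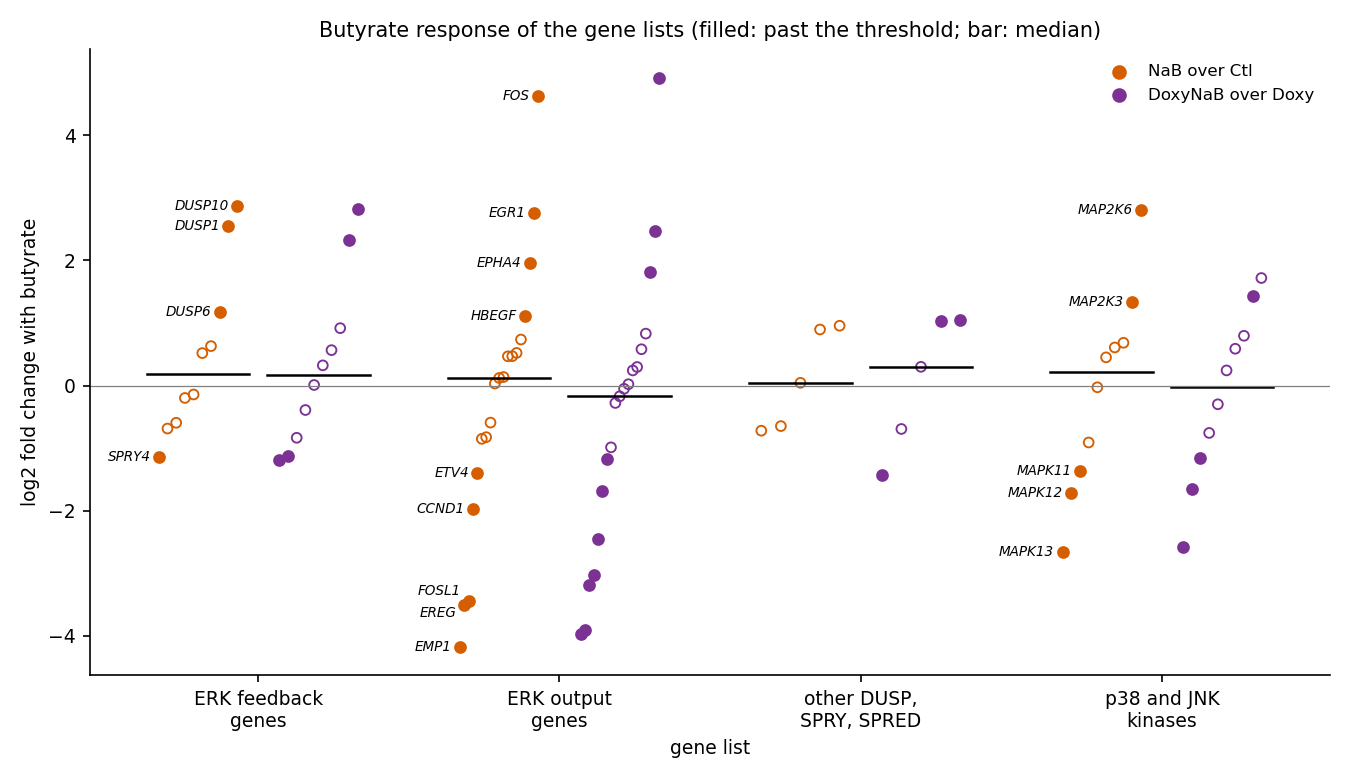
Butyrate response (vertical axis, log2 fold change) of the 10 feedback genes and of the tested genes of 3 related lists, as NaB over Ctl (orange) and DoxyNaB over Doxy (purple). Filled points passed the threshold, bars are list medians, and names stand beside genes called in NaB over Ctl; FOS at 4.63 and EMP1 at -4.18 mark the range among the ERK output genes in NaB over Ctl.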

How the data were processed

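Expression was measured on Agilent human v2 4x44K 1-colour arrays. The deposited files hold scanner signal intensity for each spot, which the authors extracted with Agilent Feature Extraction (9.5.3.1 in the file headers). The headers name NCBI36. The 10 genes and the lists of related genes were chosen with earlier results of these data known. From the deposited intensity (processed signal, background-subtracted by the software) log2 values were formed and the array's own 75th percentile over its gene spots was subtracted; control spots and outlier-flagged spots were left out and spots of 1 probe were averaged. The number of arrays limits the precision. Testing was limited to probes that the software marked as well above background throughout at least 1 treatment (6 of 6 arrays), and a gene was represented by its tested probe of highest mean level. All 24 arrays entered 1 limma fit (limma 3.58.1, R 4.3.3; lmFit, eBayes) in which the 4 treatments were compared within experiments, since the study's methods name a paired test and 6 biological replicates. Of 36 pairs of arrays of 1 experiment, 35 correlated over 0.1 in their deviations from the treatment means (0.22 to 0.85) and 1 did not (-0.22). All contrasts share arrays: NaB over Ctl and Doxy over Ctl share Ctl, for example, so their values are given side by side. In experiment 1, Ctl and Doxy were on 1 slide and NaB and DoxyNaB on another, and these slides were scanned separately. Slide, scan and butyrate therefore cannot be told apart in that experiment. From each list the text names the 3 largest rises and falls called in NaB over Ctl, and the genes called in the doxycycline contrasts or the interaction. Some items of the lists are not reported here. In data simulated from these arrays the fit recovered 188 of 200 probes changed by 1.5 (log2) in NaB over Ctl, and 61 of 100 changed by 1 in the interaction, with 0 false calls among 18327 probes. The simulated levels were already scaled, with independent noise and few changed probes, so errors from scaling or background were not tested. Start-site sequences came from RefSeq (GRCh38.p14). Python with pandas and matplotlib searched motifs and drew the figures. The alternatives were other background corrections, scalings, filters, blocks, thresholds and tests, subsets of the experiments, and leaving out each experiment.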

Additional observations from a re-analysis of the deposited data

Results flagged for a closer look

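Of 43 groups of arrays examined, 5 had 1 array whose gap to the rest was larger than Dixon's 95% limit, where chance gives about 1 in 20; all 5 were arrays of experiment 1. The level of DUSP1 was -1.19 on the Ctl array and -1.11 on the Doxy array of that experiment. SPRY2 was at -1.91 on its Doxy array, and SPRED1 was at -1.35 on its Ctl array and -2.13 on its NaB array. The Ctl group of SPRED2, with 5 values, was not among the 43. Its lowest value, -0.19, was also on the array of experiment 1. Left without experiment 1, no count of called genes changed.

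DUSP4 and DUSP6 stood out because their butyrate response differed with doxycycline, by an interaction of 0.60 (limma, adjusted p = 0.000249) and 0.60 (adjusted p = 0.00103), each above 0 in 6 of 6 experiments.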

How the results depend on the processing

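No called change turned its sign. Among butyrate changes that were not called, SPRY1 turned under the quantile normalization and the median scaling in both comparisons (lowest -0.59 and -0.51). DUSP5 turned under the median scaling in NaB over Ctl (-0.12). SPRED2, near 0 in DoxyNaB over Doxy, turned under the median scaling (-0.55) and the quantile normalization (-0.006). Some uncalled changes in the doxycycline comparisons and the interaction turned as well. With the fold threshold at 1.5, 4 genes were higher and 3 lower in NaB over Ctl (DUSP5, DUSP4 and SPRED1 added), 3 and 3 in DoxyNaB over Doxy (DUSP5 and SPRED1 added), and 1 changed in DoxyNaB over NaB (DUSP10). The share of all tested genes at this looser threshold is not given here, so no excess can be read from these counts. With the quantile normalization 3 were higher and 3 lower in DoxyNaB over Doxy (DUSP5 and SPRED1 added). With a gene's probes averaged, 0 were lower in NaB over Ctl and 1 in DoxyNaB over Doxy, since the dimmer SPRY4 probe entered. With the normexp correction 0 were lower in NaB over Ctl and 1 had an interaction. With the median scaling 2 were higher and 3 lower in NaB over Ctl (DUSP6 lost, DUSP4 and SPRED1 added), 3 were lower in DoxyNaB over Doxy (SPRED1 added) and 0 had an interaction. By the methods' t-test without adjustment 3 had an interaction (DUSP10 added). The interaction count of 2 also became 0 in experiments 2 to 4 alone, in experiments 5 and 6 alone (fewer arrays), by the methods' t-test after Benjamini-Hochberg adjustment, and without the replicate block, that is without the pairing by experiment. Leaving out each experiment in turn gave 1 to 2 genes with an interaction. For a cause not named here, the cause was not tested. The pairing changed no other count. The calls of DUSP1 and DUSP10 in both butyrate comparisons, and of DUSP4 in DoxyNaB over Doxy, held in all 22 alternatives. The signal over background limits DUSP10 without butyrate and the dimmer SPRY4 probe.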
